A study of Mus musculus with 12 samples.

Results

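Saa3, Lcn2, Hp, C3 and Cfb encode acute-phase and complement proteins that inflamed epithelium can make locally. They are 5 listed genes of the 22180 that the arrays read with a row of their own, and 4 of the 5 were measured in this way (C3 is not analysed here). Saa3 was chosen by a measured value, the largest site difference that depended on IL-6 in these same arrays, and the other genes were listed beside it. The arrays measured RNA from dorsal skin of C57Bl/6 mice, males and females together, with 1 pool of mice per array and 12 arrays in all. The 6 groups, each with 1 pool at 10 weeks of age and 1 at 14 weeks, were as follows. IL-17C+KO mice overexpress the cytokine IL-17C and lack IL-6, and gave affected (involved) and unaffected (uninvolved) skin. IL-17C+ mice overexpress IL-17C and keep IL-6, and gave the same kinds of skin. IL-6KO skin comes from IL-6 knockout mice with no transgene, and WT skin from control mice. Pools held 4 mice for IL-6KO and WT at 10 weeks and 5 mice elsewhere. The sources used here do not give the promoter that drives the transgene, or say whether both sites came from the same animals. The study asked whether psoriasis-like skin inflammation driven by IL-17C persists without IL-6.

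Acute-phase proteins are best known as products of the liver, where IL-6 acts through STAT3 to raise their transcription. Skin and other epithelia also make some of them. There, IL-17 cytokines act through NF-kB, its cofactor Nfkbiz and the C/EBP factors, and IL-17C, itself an epithelial cytokine, signals to neighbouring keratinocytes. Saa3 encodes the serum amyloid A that mice make mainly outside the liver, and Lcn2 encodes lipocalin 2, which withholds iron from bacteria by binding their siderophores. Hp encodes haptoglobin, which binds free haemoglobin. Cfb encodes factor B, the protease of the alternative complement pathway, and C3 the complement protein that it cleaves.

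The site labels of the IL-17C+KO pools ran against their readout, which bears on every direction given below. Levels are log2 of the deposited intensity throughout, and the array medians lay between 3.97 and 4.23. Il17c, the transgene, read 5.32 and 5.62 (10 and 14 weeks) for IL-17C+KO involved and 6.16 and 6.25 for IL-17C+KO uninvolved skin. It read 5.81 and 6.63 for IL-17C+ involved, 4.74 and 4.16 for IL-17C+ uninvolved, 6.30 and 6.17 in IL-6KO and 4.67 and 4.96 in WT skin. Thus IL-6KO skin, labelled free of the transgene, read as high as transgenic skin, and IL-17C+ uninvolved skin read about as low as WT. Il6 read highest in skin labelled as lacking it, at 4.93 and 5.00 for IL-17C+KO uninvolved skin. It read 3.14 and 4.64 for IL-17C+KO involved, 4.23 and 3.21 for IL-17C+ involved and 3.28 and 3.02 for IL-17C+ uninvolved skin. In IL-6KO skin it read 2.68 and 2.79 and in WT skin, which keeps Il6, 2.92 and 2.88. Both groups lay below the array medians, so a low Il6 reading does not mark the knockout here. The sources used here do not say whether these rows read the transgene and the disrupted part of Il6, and GEO's labels also call the IL-6KO pools involved skin. Whether labels were exchanged was not tested, so every group name below stands for the label. As for the tissue, 7 of 7 measured keratinocyte markers and 6 of 6 fibroblast markers lay above the array median on all 12 arrays. So did 8 of 8 skeletal muscle, 7 of 7 measured adipocyte and 7 of 8 macrophage markers, so this criterion alone does not single out skin. Of 8 hepatocyte markers 0 lay above it on all 12 arrays and 5 (Serpina1a, Fgb, Ahsg, Tat and Cps1) on none. The remaining hepatocyte markers lay above it on some arrays.

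Promoters are shown for Saa3 and Lcn2, the 2 of the 4 measured genes that matched RefSeq's promoter table (GRCm38.p6). Their levels played no part in this choice. Each run is the 250 bases before the transcription start, read 5′ to 3′ along the gene, on the minus strand of chr7:46715677-46715926 for Saa3 and of chr2:32387740-32387989 for Lcn2. The Lcn2 run ends where the gene begins, whereas RefSeq's span of Saa3 extends further upstream than the start used here, so the Saa3 run belongs to 1 annotated start and lies inside that span. Capitals mark matches on either strand to the C/EBP motif TTNCNNAA.
Saa3: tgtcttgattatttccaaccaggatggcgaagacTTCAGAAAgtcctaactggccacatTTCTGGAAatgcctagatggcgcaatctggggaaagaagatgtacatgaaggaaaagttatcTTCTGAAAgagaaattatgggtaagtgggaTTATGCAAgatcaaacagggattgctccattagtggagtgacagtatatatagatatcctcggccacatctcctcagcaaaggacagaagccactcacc
Lcn2: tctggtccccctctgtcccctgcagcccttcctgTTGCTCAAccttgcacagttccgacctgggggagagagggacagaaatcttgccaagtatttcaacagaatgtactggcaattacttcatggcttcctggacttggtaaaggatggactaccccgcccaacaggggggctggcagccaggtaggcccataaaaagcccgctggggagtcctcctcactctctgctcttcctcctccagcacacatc
Saa3 had 4 such matches and Lcn2 had 1. The motif is short and occurred in 36.8% of the 32817 mouse promoters of this length, so a match is only a description of the letters. Neither window held the STAT motif TTCNNNGAA (7.01% of promoters) or an NF-kB motif of GGGA and CC with NNNN between them (17.6%). All 4 Saa3 matches lay between bases -216 and -92 before the start, and the Lcn2 match between -216 and -209.

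Saa3 was low in 4 groups, near the array median on most of their arrays, and in the other 2 it read above nearly all rows of the array. At 10 and 14 weeks its level was 4.22 and 6.11 for IL-17C+KO involved skin and 10.87 and 12.22 for IL-17C+KO uninvolved skin. It was 10.79 and 10.62 for IL-17C+ involved and 4.59 and 3.69 for IL-17C+ uninvolved skin. In IL-6KO skin it was 4.25 and 4.68, and in WT skin 4.13 and 4.00. The IL-17C+KO uninvolved and IL-17C+ involved arrays stood above 99.5% to 99.9% of all rows, whereas the remaining 8 arrays stood between 42.8% and 79.6%. The lowest of the 4 high arrays exceeded the highest of the 8 others, which was the 14-week IL-17C+KO involved pool. Ranked by mean, the order was IL-17C+KO uninvolved (11.54 ± 0.96), IL-17C+ involved (10.71 ± 0.12), IL-17C+KO involved (5.16 ± 1.33), IL-6KO (4.47 ± 0.31), IL-17C+ uninvolved (4.14 ± 0.64) and WT (4.06 ± 0.09, SD over the 2 ages in each). The first 2 did not overlap in their arrays, and the second stood 5.54 above the third. From the third place down, each group overlapped with the next. The plot of levels by group shows this step.

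**Figure D1:**
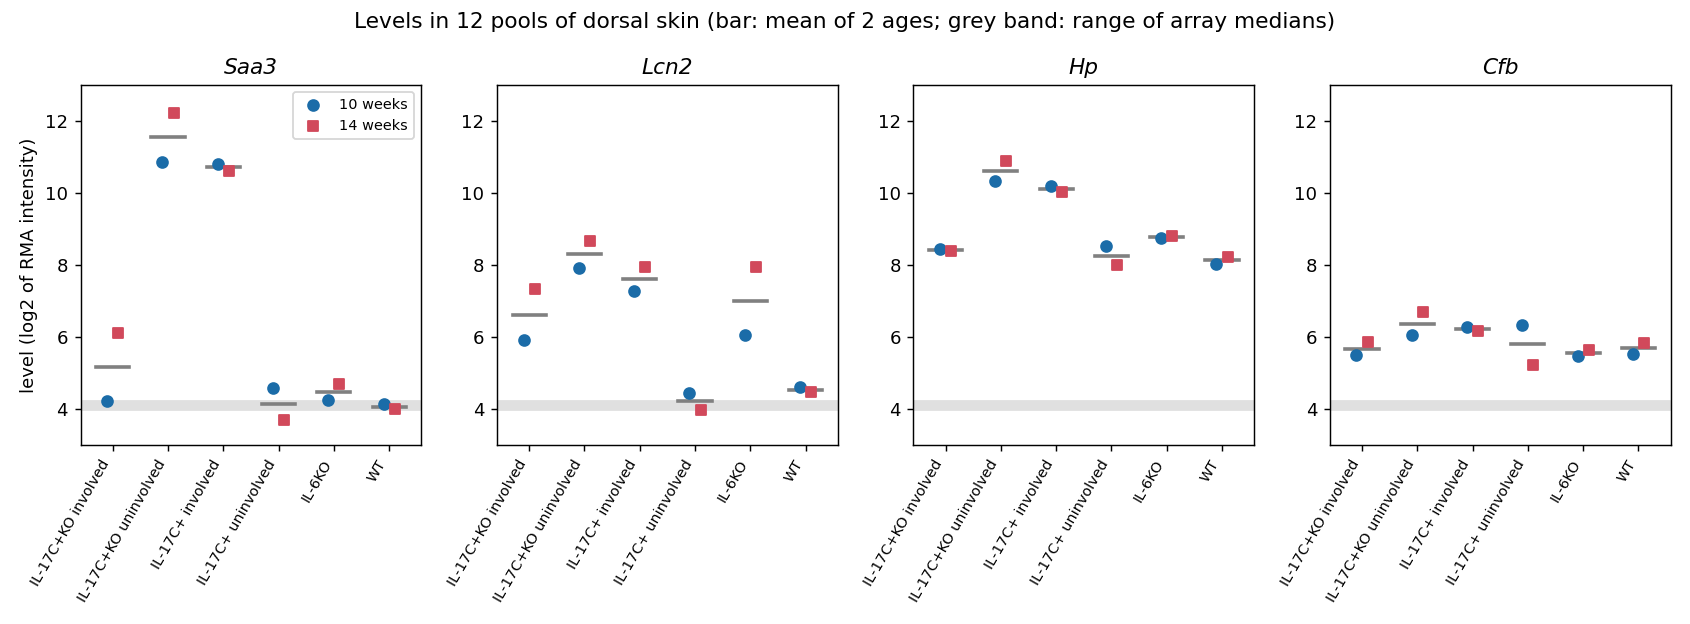
Level (log2 of RMA intensity) of Saa3, Lcn2, Hp and Cfb on each of the 12 arrays by group, circles for 10 and squares for 14 weeks, with a bar at the mean of both ages and a grey band over the array medians (3.97 to 4.23). Saa3 sits at 10.62 to 12.22 for IL-17C+KO uninvolved and IL-17C+ involved skin and at 6.11 or lower elsewhere, while Lcn2 is also raised in IL-6KO and IL-17C+KO involved skin.

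How far did the genes differ between transgenic skin and skin labelled free of the transgene? Differences come from limma over all 12 arrays, with Benjamini-Hochberg adjustment over the 22180 genes and a threshold of 0.05, and are given with limma's standard error. The pools of a group differ in age, and no group has a repeat at the same age. The spread behind each p-value is thus how unevenly the groups changed from 10 to 14 weeks. Nothing in the labels says that pools of 1 group came from separate cohorts, so p-values here reflect no more than how these pools vary. That variation may be technical or a real change with age in some groups. Saa3 was chosen by its values in the 4 transgenic groups, so its differences that use them are a description without a test. IL-17C+ involved skin was higher than WT by 6.64 ± 0.51 (99.9-fold), by 6.66 at 10 and 6.62 at 14 weeks. IL-17C+KO uninvolved skin was higher than IL-6KO by 7.08 ± 0.51 (135-fold), by 6.62 and 7.54. In IL-6KO and WT skin Saa3 lay near the array medians, where arrays tell levels apart poorly, so the sizes of both folds are uncertain. IL-17C+ uninvolved skin differed from WT by 0.08 ± 0.51. IL-17C+KO involved skin differed from IL-6KO by 0.70 ± 0.51, with -0.03 at 10 and 1.42 at 14 weeks. Between IL-6KO and WT, whose arrays the choice did not use, Saa3 differed by 0.40 ± 0.51 (adjusted p = 0.909). The standard error and p of this difference also rest on the spread of the transgenic arrays that chose Saa3.

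Among the transgenic groups themselves the values of Saa3 are likewise a description. In IL-17C+ skin Saa3 was higher in involved than in uninvolved pools by 6.20 at 10 and 6.93 at 14 weeks. In IL-17C+KO skin involved minus uninvolved was -6.65 and -6.12, the opposite direction at both ages. The site difference of IL-17C+ minus that of IL-17C+KO skin was 12.94, the largest of all genes, ahead of Stfa3 at 11.25 and Retnlg at 10.54, which the rule did not take. The same subtraction gave 5.07 for Lcn2, 4.05 for Hp and 1.13 for Cfb. Within involved skin IL-17C+KO minus IL-17C+ was -6.58 at 10 and -4.51 at 14 weeks. Within uninvolved skin the same subtraction gave 6.27 and 8.53.

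Lcn2 was raised in more groups than Saa3, and by smaller amounts. Its level at 10 and 14 weeks was 5.91 and 7.33 for IL-17C+KO involved and 7.92 and 8.66 for IL-17C+KO uninvolved skin. It was 7.28 and 7.94 for IL-17C+ involved and 4.44 and 3.98 for IL-17C+ uninvolved skin. IL-6KO skin read 6.05 and 7.94, and WT skin 4.60 and 4.46. The 4 lowest arrays were those of IL-17C+ uninvolved and WT skin, and all 8 others lay above them. Among the 4 higher groups each overlapped with the next in the order of means, with 8.29 ± 0.52 (SD, n = 2) at the top for IL-17C+KO uninvolved skin and 6.62 ± 1.01 at the bottom for IL-17C+KO involved skin.

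Lcn2 rose in IL-17C+ involved skin over WT by 3.08 ± 0.45 (8.47-fold, adjusted p = 0.00414), at both ages. The call was lost without the 10-week IL-17C+ involved array (3.07, adjusted p = 0.0692) and without the 14-week WT array (2.58, adjusted p = 0.059). Over IL-17C+ uninvolved skin IL-17C+ involved skin was higher by 3.40 ± 0.45 (10.5-fold, adjusted p = 0.00261), and no single array ended this call. IL-17C+KO uninvolved skin was higher than IL-17C+ uninvolved skin by 4.08 ± 0.45 (16.9-fold, adjusted p = 0.000926), again whichever array was left out. IL-17C+ uninvolved and WT skin read Lcn2 near the array medians, so the sizes of these folds are uncertain, as for Saa3. IL-17C+KO uninvolved skin differed from IL-6KO by 1.29 ± 0.45 without passing (adjusted p = 0.455), although this passed on the 4 arrays of these groups alone (adjusted p = 0.00967). IL-17C+KO involved skin differed from IL-17C+KO uninvolved skin by -1.67 ± 0.45 (adjusted p = 0.22), which passed on its own 4 arrays (adjusted p = 0.0427). It differed from IL-17C+ involved skin by -0.99 ± 0.45 (adjusted p = 0.527) and from IL-6KO by -0.37 ± 0.45 (adjusted p = 0.999). IL-17C+ uninvolved skin differed from WT by -0.32 ± 0.45 (adjusted p = 0.938).

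Lcn2 was the only measured gene of the 4 that passed between the groups labelled free of the transgene. IL-6KO skin was higher than WT by 2.47 ± 0.45 (5.53-fold, adjusted p = 0.0376, where 0.455% of all genes passed), with 1.45 at 10 and 3.49 at 14 weeks. This call was fragile: it ended without age in the model (adjusted p = 0.134), with eBayes without the trend (adjusted p = 0.0591), and in 7 of 12 fits that left out an array. Without the 14-week IL-6KO array the difference was 1.74 (adjusted p = 0.433), and without the 14-week WT array 1.97 (adjusted p = 0.204). Without the 10-week WT array it was 2.97 (adjusted p = 0.053), and without 1 of the 4 arrays of skin with high Saa3 it was 2.47 (adjusted p = 0.0548 to 0.0558). Over the 12 arrays Lcn2 had a Pearson correlation of 0.89 with Il17c, against 0.65 for Saa3, a description over arrays that share groups.

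Hp was abundant everywhere and was further raised in the 2 groups with high Saa3. Its level at 10 and 14 weeks was 8.45 and 8.39 for IL-17C+KO involved and 10.33 and 10.89 for IL-17C+KO uninvolved skin. It was 10.20 and 10.02 for IL-17C+ involved and 8.52 and 7.99 for IL-17C+ uninvolved skin, 8.76 and 8.80 in IL-6KO and 8.03 and 8.23 in WT skin. Every array read Hp above at least 95.3% of all rows. No array of the 2 high groups overlapped with the other 8, and the gap to the third group, IL-6KO, was 1.33 between means.

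Hp rose in IL-17C+ involved skin over WT by 1.97 ± 0.28 (3.93-fold, adjusted p = 0.00363) and over IL-17C+ uninvolved skin by 1.86 ± 0.28 (3.62-fold, adjusted p = 0.00559). Without the 10-week IL-17C+ involved array neither passed (1.87, adjusted p = 0.0884, and 1.75, adjusted p = 0.101). Without the 14-week one the second did not pass (1.96, adjusted p = 0.0706). It rose in IL-17C+KO uninvolved skin over IL-6KO by 1.83 ± 0.28 (3.55-fold, adjusted p = 0.0157). That call ended without the 10-week IL-6KO (1.81, adjusted p = 0.155), 14-week IL-6KO (1.85, adjusted p = 0.108) or 14-week IL-17C+KO uninvolved array (1.50, adjusted p = 0.374). Over IL-17C+ uninvolved skin IL-17C+KO uninvolved skin was higher by 2.36 ± 0.28 (5.12-fold, adjusted p = 0.00156), a call that no single array ended.

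In IL-17C+KO involved skin Hp fell by 2.19 ± 0.28 relative to IL-17C+KO uninvolved skin (adjusted p = 0.00384), against the direction of the site labels in IL-17C+ skin. This did not pass without the 10-week IL-17C+KO involved (-2.23, adjusted p = 0.072) or 14-week IL-17C+KO uninvolved array (-1.86, adjusted p = 0.117). Relative to IL-17C+ involved skin Hp fell by 1.69 ± 0.28 (adjusted p = 0.0179). Leaving out any of the 4 arrays of these groups ended that call, with differences of -1.80 to -1.58 and adjusted p of 0.072 to 0.233. Hp differed from WT by 0.65 ± 0.28 in IL-6KO skin (adjusted p = 0.561) and by 0.12 ± 0.28 in IL-17C+ uninvolved skin (adjusted p = 0.965). IL-17C+KO involved skin differed from IL-6KO by -0.37 ± 0.28 (adjusted p = 0.999).

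Cfb varied least. Its level at 10 and 14 weeks was 5.49 and 5.86 for IL-17C+KO involved, 6.06 and 6.68 for IL-17C+KO uninvolved, 6.28 and 6.16 for IL-17C+ involved and 6.34 and 5.23 for IL-17C+ uninvolved skin. It was 5.46 and 5.64 in IL-6KO and 5.53 and 5.82 in WT skin. Each group overlapped with its neighbour in the order of means, and the widest spread within a group, 1.11 between the ages of IL-17C+ uninvolved skin, exceeded the 0.82 between the highest and lowest group means. Cfb passed in no comparison. Its largest difference, 0.82 ± 0.34 in IL-17C+KO uninvolved skin over IL-6KO, had adjusted p = 0.622, and IL-17C+ involved skin differed from WT by 0.54 ± 0.34 (adjusted p = 0.611). These p-values do not show that Cfb stayed the same.

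**Figure D2:**
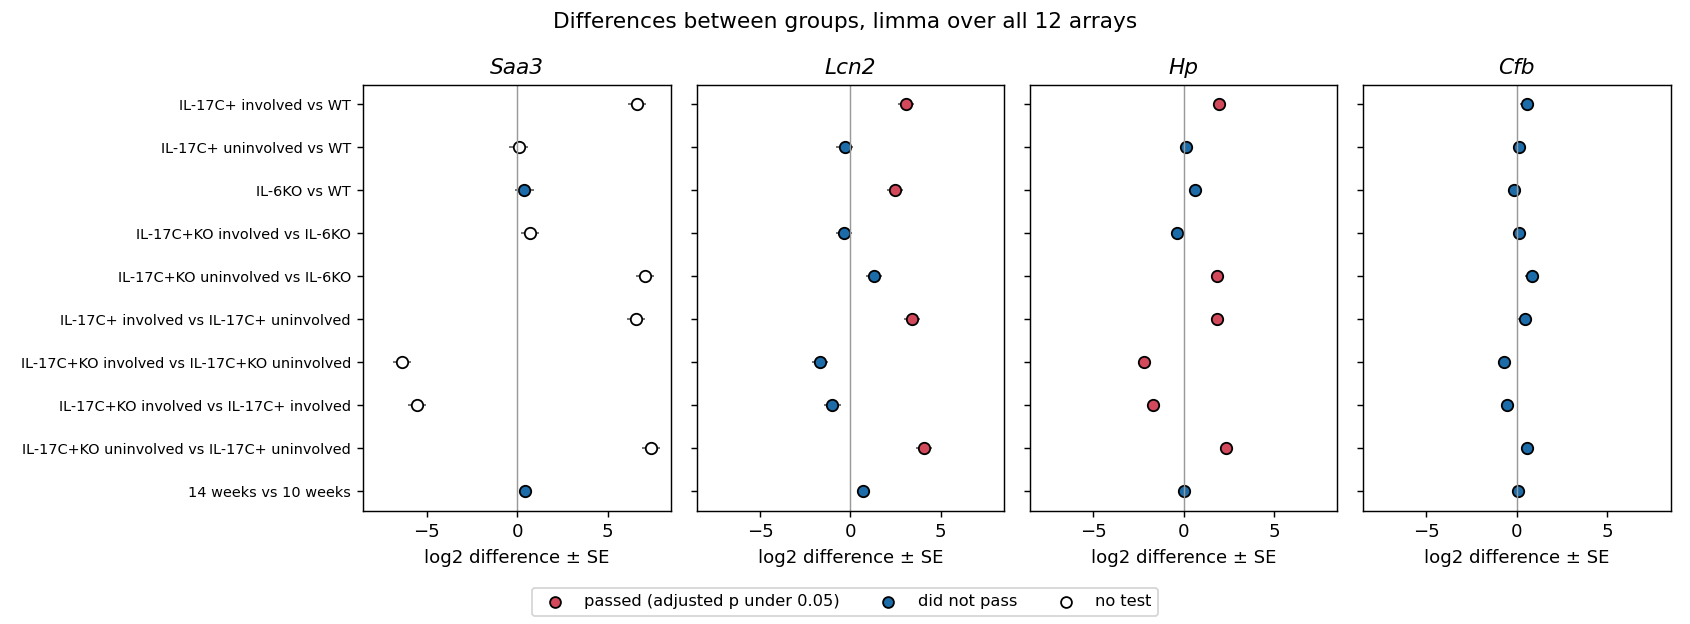
Log2 difference with its standard error (limma, all 12 arrays) for Saa3, Lcn2, Hp and Cfb in 10 comparisons, the group named first minus the group named second. Red points passed, blue points did not pass and white points have no test, and the age point of Saa3, drawn blue, is a description. Saa3 spans -6.38 to 7.40 and Cfb stays between -0.70 and 0.82.

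Read against all genes, the tested genes passed as follows, with Saa3 counted only between IL-6KO and WT. In IL-17C+ involved skin against WT 2 of 3 passed, both higher, where 1.8% of all genes passed. In IL-17C+KO uninvolved skin against IL-6KO 1 of 3 passed, as higher, where 0.397% of all genes did. Between IL-6KO and WT 1 of 4 passed (0.455% of all genes). Of the remaining comparisons with skin labelled free of the transgene, IL-17C+ uninvolved skin against WT (0.0541% of all genes) and IL-17C+KO involved skin against IL-6KO (0.171%) had none of 3. Among the transgenic groups 2 of 3 passed between IL-17C+ involved and uninvolved skin (1.61%), 1 of 3 between IL-17C+KO involved and uninvolved skin (0.505%) and 1 of 3 between IL-17C+KO and IL-17C+ involved skin (0.649%). Between IL-17C+KO and IL-17C+ uninvolved skin 2 of 3 passed (0.712%). These comparisons share arrays and the genes were listed with results known, so the counts do not support each other.

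Over the 12 arrays Saa3 and Hp had a Pearson correlation of 0.97, Saa3 and Lcn2 of 0.78, Saa3 and Cfb of 0.78, and Lcn2 and Cfb of 0.53. All arrays fall into the same 6 groups, so these are descriptions. The 5 genes most like Saa3 were Tnc (tenascin C, a matrix protein of wounded tissue, 0.989), Stfa2l1 (a stefin, 0.985), Il1b (the cytokine IL-1 beta, 0.984), Clec4d (a myeloid lectin receptor, 0.984) and Retnlg (a product of neutrophils, 0.984). Those most like Lcn2 were Il1f9 and Il1f6 (IL-36 cytokines of keratinocytes, 0.961 and 0.958), Car12 (a carbonic anhydrase, 0.960), Defb3 (a beta-defensin, 0.958) and Chil1 (a chitinase-like protein, 0.958). Hp was closest to Col12a1 (a collagen, 0.970), Tnn (a tenascin, 0.967), Saa3 (0.966), Timp1 (a protease inhibitor, 0.966) and Clec5a (a myeloid receptor, 0.958). Cfb was closest to Apbb1ip (0.952), Thbs2 (a matrix protein, 0.934), Cdh5 (the cadherin of endothelium, 0.928), Slfn2 (0.922) and Colec12 (a scavenger receptor, 0.920). Lists of 5 genes from so many can easily differ, so the lack of a shared gene between those of Saa3 and Lcn2 is not read as a result.

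Most of the other acute-phase and complement genes did not pass, and those that did included differences larger than those of Lcn2 or Hp. Over 8 lists with 104 measured genes beside the 4, IL-17C+ involved skin had 4 higher and 1 lower than WT (4.81% of the lists, where 1.8% of all genes passed), with a median difference of 0.13 against 0.01 over all genes. IL-17C+KO uninvolved skin had 5 higher and 0 lower than IL-6KO (4.81%, where 0.397% of all genes passed), with a median of 0.22 against -0.01. Between IL-17C+ involved and uninvolved skin 5 rose and 1 fell (5.77%, where 1.61% of all genes passed), and between IL-17C+KO involved and uninvolved skin 2 fell (1.92%, where 0.505% did). In IL-17C+KO against IL-17C+ pools 2 fell in involved skin (1.92%, where 0.649% of all genes passed) and 2 rose in uninvolved skin (1.92%, where 0.712% did). The lists were chosen with results known. None passed between IL-17C+ uninvolved or IL-6KO skin and WT, or between IL-17C+KO involved skin and IL-6KO.

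The other serum amyloid A genes lie next to Saa3 on chromosome 7 and were low on most arrays, with a higher reading of Saa2 in the 14-week IL-17C+KO uninvolved pool. Saa2, an acute-phase serum amyloid A of the liver, read 3.11 and 2.75 for IL-17C+KO involved and 3.09 and 6.10 for IL-17C+KO uninvolved skin at 10 and 14 weeks. It read 3.80 and 4.74 for IL-17C+ involved, 2.63 and 2.89 for IL-17C+ uninvolved, 2.24 and 2.77 in IL-6KO and 3.93 and 2.81 in WT skin. Only the 14-week arrays of the 2 groups with high Saa3 lay above their array medians. Saa2 differed by 2.09 ± 0.65 between IL-17C+KO uninvolved and IL-6KO skin (adjusted p = 0.357) and by 0.90 ± 0.65 between IL-17C+ involved and WT skin (adjusted p = 0.673). The row that names both Saa1 and Saa2 was likewise highest in the 14-week IL-17C+KO uninvolved pool, at 5.58, and these near-identical genes may share signal. Saa4, the constitutive member, ranged from 2.44 to 3.27 over all arrays.

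Among the partners of lipocalin 2 and iron genes, 1 of 13 rose both in IL-17C+ involved skin over WT and in IL-17C+KO uninvolved skin over IL-6KO. This was Mmp9, the gelatinase that lipocalin 2 binds, at 2.36 ± 0.34 (adjusted p = 0.00363) and 2.99 ± 0.34 (adjusted p = 0.00123). Its level was 4.81 and 4.81 for IL-17C+KO involved, 7.30 and 7.95 for IL-17C+KO uninvolved, 7.13 and 8.10 for IL-17C+ involved and 4.99 and 4.90 for IL-17C+ uninvolved skin. In IL-6KO it was 4.98 and 4.29 and in WT 5.05 and 5.46, so Mmp9 was high in the same 4 arrays as Saa3 and low in IL-6KO skin, where Lcn2 was raised. Hmox1, which degrades haem, differed by 0.94 ± 0.27 in the first comparison (adjusted p = 0.117). Slc11a1, an iron transporter of phagosomes, differed by 1.03 ± 0.30 in the second (adjusted p = 0.292).

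Of 28 other acute-phase proteins 1 rose in each of these 2 comparisons. Il1rn, the IL-1 receptor antagonist, rose by 1.21 ± 0.27 in IL-17C+ involved skin over WT (adjusted p = 0.0456). Ptx3, a pentraxin made by tissue cells, rose by 1.24 ± 0.21 in IL-17C+KO uninvolved skin over IL-6KO (adjusted p = 0.0256), at levels near the array median. Serpina3n, a protease inhibitor, differed by 1.45 ± 0.37 in the first (adjusted p = 0.0715) and Fn1, fibronectin, by 1.75 ± 0.35 in the second (adjusted p = 0.0594).

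The complement lists split. Of 13 classical and lectin pathway genes Masp1, a lectin pathway protease, rose in IL-17C+ involved skin over WT by 1.27 ± 0.24 (adjusted p = 0.0202). None of the 13 passed in IL-17C+KO uninvolved skin over IL-6KO, where C1qb differed most, by 0.81 ± 0.37 (adjusted p = 0.668). Of 8 alternative and terminal pathway genes beside Cfb, C7, a component of the membrane attack complex, fell by 3.36 ± 0.57 in IL-17C+ involved skin relative to WT (adjusted p = 0.0115). C7 read 4.64 and 5.19 for IL-17C+ involved skin, against 8.32 and 8.23 in WT skin, a difference larger than any rise of a list gene in that comparison. It also read low in IL-6KO skin, at 4.82 and 6.01. Among 15 complement receptors and regulators none passed in IL-17C+ involved skin over WT, where Itgam differed by 1.28 ± 0.38 (adjusted p = 0.142). Itgam, a chain of complement receptor CR3 on myeloid cells, rose by 2.19 ± 0.38 in IL-17C+KO uninvolved skin over IL-6KO (adjusted p = 0.029).

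Receptors that can bind serum amyloid A had 2 of 7 higher in IL-17C+KO uninvolved skin over IL-6KO. These were Fpr2, a formyl peptide receptor, by 1.74 ± 0.33 (adjusted p = 0.0446), and Tlr2, a Toll-like receptor, by 1.43 ± 0.25 (adjusted p = 0.0256). Fpr2 lay below the array medians in IL-6KO skin (2.58 and 3.06) and near them in IL-17C+KO uninvolved skin (4.44 and 4.68). In IL-17C+ involved skin over WT none of the 7 passed, with Fpr2 at 0.98 ± 0.33 (adjusted p = 0.205). Over IL-17C+ uninvolved skin, however, Tlr2 rose there by 1.10 ± 0.25 (adjusted p = 0.0439). Of 18 regulators of acute-phase transcription, Cebpb, a C/EBP factor, rose in IL-17C+ involved skin over WT by 1.11 ± 0.24 (adjusted p = 0.0335). It read 8.25 and 8.23 for IL-17C+ involved, against 6.88 and 7.38 in WT skin. Bcl3, an NF-kB cofactor, differed there by 1.11 ± 0.27 (adjusted p = 0.0585) and rose over IL-17C+ uninvolved skin by 1.51 ± 0.27 (adjusted p = 0.0132). None of the 18 passed in IL-17C+KO uninvolved skin over IL-6KO, where Il1r1, the IL-1 receptor, differed by 1.52 ± 0.30 (adjusted p = 0.0551).

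**Figure D3:**
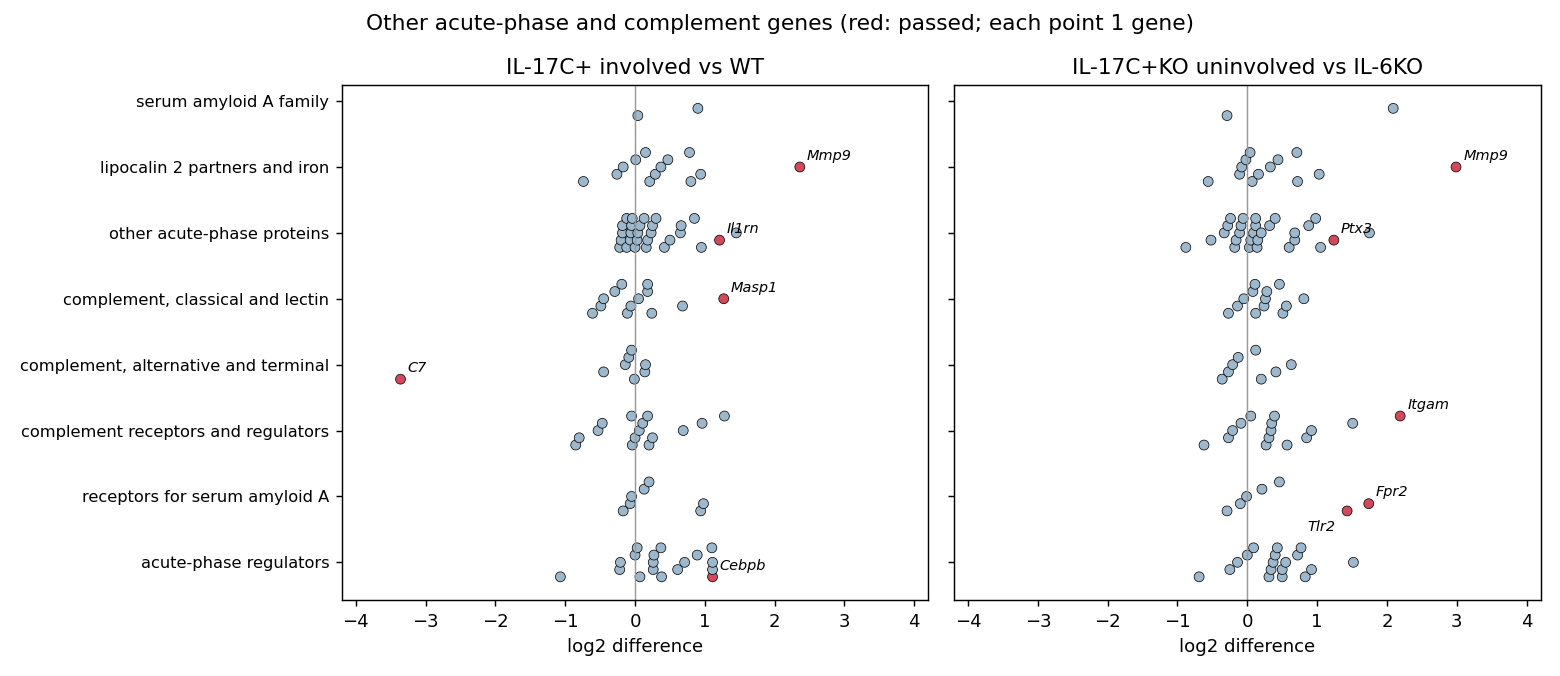
Log2 difference of each measured gene of the 8 lists, without Saa3, Lcn2, Hp and Cfb, in IL-17C+ involved against WT skin (left) and IL-17C+KO uninvolved against IL-6KO skin (right), with genes that passed in red and named. Mmp9 is the only gene that passed in both panels, and C7, at -3.36, is the only one that passed as lower.

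Markers of other cells moved with these genes. The summed intensity of the 12 neutrophil markers was 260 and 1133 for IL-17C+KO involved, 3576 and 5134 for IL-17C+KO uninvolved, 3571 and 4900 for IL-17C+ involved and 260 and 174 for IL-17C+ uninvolved skin. It was 321 and 781 in IL-6KO and 248 and 193 in WT skin. This sum is led by genes such as S100a8 and S100a9 that keratinocytes also make under stress, Itgam is also in the list of complement receptors, and the granule genes Camp, Mpo and Elane lay above the array median on no array. Their mean log2 level had a correlation of 0.98 with Saa3, 0.95 with Hp, 0.85 with Lcn2 and 0.73 with Cfb. Skeletal muscle markers ran the other way, with a mean log2 level of 9.77 for IL-17C+KO involved, 8.97 for IL-17C+KO uninvolved, 8.15 for IL-17C+ involved, 10.76 for IL-17C+ uninvolved, 8.84 in IL-6KO and 10.68 in WT skin. Their correlation was -0.88 with Lcn2 and -0.67 with Saa3 and with Hp. The part of these markers in the differences was not tested, and in whole skin more cells of a type and more RNA per cell cannot be told apart. Adipocytes can express Saa3, Lcn2 and Hp, and the mean of the 7 measured adipocyte markers lay between 7.09 and 7.61 in the 6 groups, with correlations of -0.14 to 0.17 with the 4 genes. Within WT skin the adipocyte mean read 6.51 at 10 and 8.01 at 14 weeks, a wider range than that of the group means. Hair shaft and fibroblast markers also differed between groups. The mean of the 5 measured hair shaft markers was 5.13 for IL-17C+KO involved, 7.65 for IL-17C+KO uninvolved, 7.41 for IL-17C+ involved, 8.48 for IL-17C+ uninvolved, 8.68 in IL-6KO and 5.04 in WT skin. That of the 6 fibroblast markers, at 10 and 14 weeks, was 9.92 and 10.02 for IL-17C+KO involved, against 10.87 and 11.14 for IL-17C+KO uninvolved skin, and 9.69 and 9.61 in IL-6KO, against 11.12 and 10.88 in WT skin. Both lists thus differed in the comparison of IL-6KO with WT skin, where Lcn2 passed, and between the IL-17C+KO sites, where Hp passed, and their part in those calls was not tested. Macrophage markers averaged between 6.66 and 7.10 in the 6 groups.

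**Figure D4:**
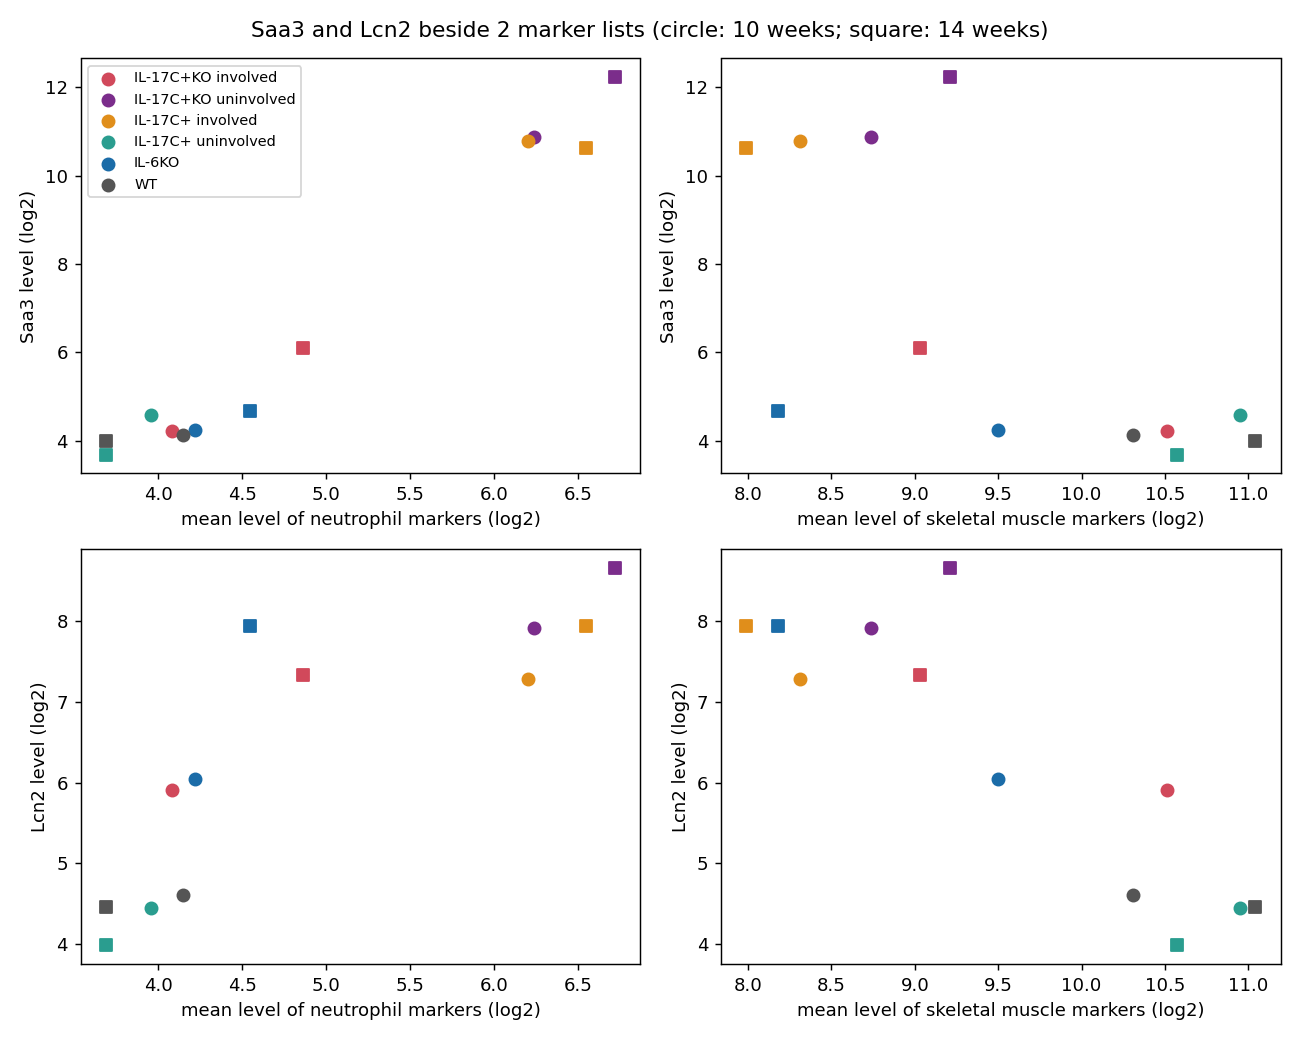
Log2 level of Saa3 (top) and Lcn2 (bottom) on each array against the mean log2 level of 12 neutrophil markers (left) and 8 skeletal muscle markers (right), coloured by group, with circles for 10 and squares for 14 weeks. Saa3 forms a high cluster of 4 arrays and a low cluster of 8. Lcn2 on the 10-week arrays of IL-17C+KO involved and IL-6KO skin (5.91 and 6.05) lies above the 10-week WT array (4.60) at similar neutrophil marker levels. At 14 weeks Lcn2 (7.33 and 7.94, against 4.46 in WT) and the neutrophil marker mean (4.86 and 4.55, against 3.69) are both higher in these groups than in WT.

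Did the genes change with age? limma called 0 of 22180 genes between 14 and 10 weeks (0% of all genes, 1856 at unadjusted p under 0.05). Lcn2 differed by 0.69 ± 0.26 (adjusted p = 0.571), 14 minus 10 weeks over all groups. Saa3 differed by 0.41 ± 0.29, a description, since the transgenic arrays that chose it enter this difference too. Hp differed by 0.00 ± 0.16 and Cfb by 0.04 ± 0.20 (adjusted p = 0.996 and 0.954). By group, the Saa3 level at 14 minus that at 10 weeks was 1.89 for IL-17C+KO involved, 1.35 for IL-17C+KO uninvolved, -0.18 for IL-17C+ involved, -0.90 for IL-17C+ uninvolved, 0.43 in IL-6KO and -0.13 in WT skin. For Lcn2 it was 1.42, 0.74, 0.66, -0.46, 1.90 and -0.15 in the same order of groups. With 1 pool per group and age, these group values have no replicate. All 3 groups labelled as lacking IL-6 had more Saa3 and Lcn2 at 14 weeks than at 10. The groups not so labelled were mixed: both genes were lower at 14 weeks in IL-17C+ uninvolved and WT skin. In IL-17C+ involved skin Saa3 was lower (-0.18) but Lcn2 was higher (0.66), close to its 0.74 for IL-17C+KO uninvolved skin.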

How the data were processed

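RNA from 12 pools of mouse dorsal skin was read on 12 microarrays. The authors deposited RMA intensities on a linear scale, made with Affymetrix Expression Console per the submitters' processing notes (versions not given there). RMA summarises probes after quantile normalization and compresses low levels. Of 41345 rows, 23521 named 1 gene and were used, 1814 named several and 16010 none. Where a gene had several rows (1082 genes) the row with the highest mean was taken, leaving 22180 genes. Values were taken to log2 and fitted with limma 3.58.1 in R 4.3.3 (group means and age, 5 residual degrees of freedom, eBayes with trend), with Benjamini-Hochberg adjustment and a threshold of 0.05. The code was tested on simulated data. Age, the replicate number, served as a block, since the labels state it. Each group had 1 array per age, so the number of arrays limits the precision.

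The genes and lists were chosen with earlier results of these data known. Genes outside the lists are named by Pearson correlation (the 5 highest per gene), and list genes where they passed or came closest in size. Saa3 is given with a test only between IL-6KO and WT, since its values in the 4 transgenic groups chose it. The design had also planned its tests against WT and IL-6KO and for age. Alternatives covered the age block, the trend, dim genes, normalization, rows per gene, the arrays fitted and single arrays left out. Saa1 and C3 have no row of their own in the tables used and are not analysed here.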

Additional observations from a re-analysis of the deposited data

Results flagged for a closer look

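The following differences stood out because both ages of IL-17C+ skin moved one way and both ages of IL-17C+KO skin the other. None of these differences between differences was tested, and the site labels of the IL-17C+KO pools ran against their readout, as described above. For Saa3 involved minus uninvolved skin was -6.65 and -6.12 in IL-17C+KO pools (10 and 14 weeks), against 6.20 and 6.93 in IL-17C+ pools. The site difference of IL-17C+ minus that of IL-17C+KO skin was 12.94, and it is the value for which Saa3 was chosen. For Lcn2 the site difference was -2.01 and -1.32 in IL-17C+KO pools, against 2.84 and 3.96 in IL-17C+ pools, which gave 5.07. For Hp it was -1.88 and -2.50 in IL-17C+KO pools, against 1.68 and 2.03 in IL-17C+ pools, which gave 4.05.

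Set against skin labelled free of the transgene, Lcn2 in IL-17C+KO involved minus IL-6KO skin was -0.14 and -0.61, against 2.68 and 3.49 in IL-17C+ involved minus WT skin, a difference of 3.46 (IL-17C+ minus IL-17C+KO). For uninvolved skin Lcn2 gave 1.87 and 0.71 over IL-6KO in IL-17C+KO pools, against -0.16 and -0.47 over WT in IL-17C+ pools, a difference of -1.61. Hp in IL-17C+KO involved minus IL-6KO skin was -0.32 and -0.42, against 2.16 and 1.79 in IL-17C+ involved minus WT skin, a difference of 2.34.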

How the results depend on the processing

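Outside the fits without 1 array, 319 of 348 recomputed results counted as unchanged. For tested differences this meant the same direction and side of the threshold, and for counts of genes a close size. For untested differences it meant the same direction and a move smaller than the gene's residual SD. Leaving out age, the trend, dim genes or the arrays of other groups cannot change a log2 difference in this balanced design. Nor can pairing the sites. Averaging rows cannot either, since each of the 4 genes had 1 row naming it alone. For untested differences those outcomes were fixed in advance, and only normalization could move them. The count of unchanged results is thus no measure of how robust they are. Without the age term (no replicate block) the difference of Lcn2 between IL-6KO and WT skin was 2.47 but did not pass (adjusted p = 0.134), and likewise 2.47 without the trend (adjusted p = 0.0591). Neither choice changed another call of the 4 genes. Without that block 7 genes passed in IL-17C+ uninvolved against WT, 26 in IL-6KO against WT and 14 in IL-17C+KO involved against IL-6KO skin. Without the trend these counts were 3, 63 and 15. Pairing the sites of each genotype and age as a replicate block gave 62 genes in IL-17C+KO involved against uninvolved skin. With dim genes left out 19 passed in IL-17C+ uninvolved against WT skin. With quantile normalization again 678 passed in IL-17C+ involved, 2 in IL-17C+ uninvolved and 163 in IL-6KO against WT, and 2 in IL-17C+KO involved against IL-6KO skin. It turned differences near 0 that had not passed, to -0.09 (Hp) and -0.02 (Cfb) in IL-17C+ uninvolved against WT skin, and to -0.14 (Hp) and -0.04 (Cfb) for 14 against 10 weeks.

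With only the arrays compared the counts were 883 for IL-17C+ involved, 127 for IL-17C+ uninvolved and 266 for IL-6KO against WT, and 130 for IL-17C+KO involved and 563 for IL-17C+KO uninvolved against IL-6KO skin. Between transgenic groups they were 770 for IL-17C+ involved against uninvolved, 436 for IL-17C+KO against IL-17C+ involved and 354 for IL-17C+KO against IL-17C+ uninvolved skin. Lcn2 then passed at 1.29 in IL-17C+KO uninvolved against IL-6KO (adjusted p = 0.00967) and at -1.67 in IL-17C+KO involved against uninvolved skin (adjusted p = 0.0427). These fits of 4 arrays leave hardly any residual degrees of freedom, so their p-values and counts are weak evidence. Leaving out the 4 IL-17C+KO arrays, chosen after seeing the data, gave 34 genes in IL-17C+ uninvolved against WT skin and changed no call of the 4 genes. The cause of these changes was not tested.

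Leaving out each array in turn gave the following ranges of log2 differences and of counts of genes that passed. For IL-17C+ involved against WT skin they were 6.29 to 6.99 for Saa3, 2.58 to 3.58 for Lcn2, 1.86 to 2.09 for Hp, 0.39 to 0.69 for Cfb and 65 to 509 genes. In the comparison of IL-17C+ uninvolved against WT skin they ran -0.71 to 0.87 for Saa3, -1.0 to 0.37 for Lcn2, -0.20 to 0.44 for Hp, -0.58 to 0.80 for Cfb and 0 to 87 genes. For IL-6KO against WT skin they were 0.08 to 0.73 for Saa3, 1.74 to 3.19 for Lcn2, 0.53 to 0.77 for Hp, -0.27 to 0.02 for Cfb and 7 to 153 genes. In the comparison of IL-17C+KO involved against IL-6KO skin they ran -0.19 to 1.58 for Saa3, -1.10 to 0.35 for Lcn2, -0.41 to -0.33 for Hp, -0.08 to 0.33 for Cfb and 0 to 62 genes. For IL-17C+KO uninvolved against IL-6KO skin they were 6.51 to 7.64 for Saa3, 0.57 to 2.02 for Lcn2, 1.50 to 2.16 for Hp, 0.47 to 1.17 for Cfb and 15 to 164 genes. In the comparison of IL-17C+ involved against its uninvolved skin they ran 5.78 to 7.35 for Saa3, 2.71 to 4.08 for Lcn2, 1.54 to 2.18 for Hp, -0.26 to 1.12 for Cfb and 63 to 519 genes. For IL-17C+KO involved against its uninvolved skin they were -7.27 to -5.50 for Saa3, -2.11 to -1.22 for Lcn2, -2.52 to -1.86 for Hp, -1.04 to -0.35 for Cfb and 16 to 160 genes. In the comparison of involved skin of IL-17C+KO against IL-17C+ they ran -6.43 to -4.66 for Saa3, -1.43 to -0.55 for Lcn2, -1.80 to -1.58 for Hp, -0.75 to -0.34 for Cfb and 23 to 244 genes. For uninvolved skin of IL-17C+KO against IL-17C+ they were 6.61 to 8.19 for Saa3, 3.39 to 4.76 for Lcn2, 2.03 to 2.69 for Hp, -0.10 to 1.27 for Cfb and 59 to 200 genes. In the comparison of 14 against 10 weeks they ran 0.12 to 0.67 for Saa3, 0.44 to 0.91 for Lcn2, -0.11 to 0.11 for Hp, -0.08 to 0.27 for Cfb and 0 to 0 genes. The site difference of IL-17C+ minus that of IL-17C+KO skin ran 12.06 to 13.83 for Saa3, 4.38 to 5.75 for Lcn2, 3.72 to 4.38 for Hp, 0.44 to 1.81 for Cfb. Calls lost without 1 array are named beside the result.

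With 1 pool per group and age, the spread rests on 5 residual degrees of freedom, and a p that misses the threshold does not show equal levels. Rows near the array medians give only a rough size for Saa3 folds.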
